A study of Homo sapiens with 6 samples.

Results

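Box C/D, box H/ACA and Cajal-body RNAs were taken as the genes whose symbols begin with SNORD, SNORA or SCARNA and whose library-scaled counts (CPM, counts scaled to a common library size) were above 1 in at least 3 libraries. Of 58051 genes in the count table, 551 carried such a symbol, and 196 passed: 96 of 313 SNORD, 87 of 213 SNORA and 13 of 25 SCARNA genes. Of these, 5 loci were annotated under a pair of identifiers each, so the 196 genes lay at 191 loci. Of the 196, 176 were above 1 CPM in all 6 libraries and 20 in fewer. SNORA19 alone passed through the 3 libraries of a single group (LMB), so its place among the members depended on its being higher there. SNORD69 and SNORD38A passed by the value that decided it, 1.00 and 1.03 CPM, and SNORD37 and SNORD70B missed at 0.999 and 0.997 CPM.

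Total RNA depleted of ribosomal RNA was sequenced from the colorectal adenocarcinoma line DLD-1 of genotype AID-NeonGreen-TPR. In these cells the nuclear basket protein TPR carries an auxin-inducible degron and a fluorescent tag, and the TIR1 ligase that auxin recruits is made from the RCC1 locus. All 6 libraries came from cells given 200 nM Leptomycin B (LMB), an inhibitor of the export receptor CRM1, for 3 h as the sample characteristics and the methods state (the sample titles say 2 h). The 3 LMB+auxin libraries also received 1 mM auxin for 2 h, which degrades TPR, and the 3 LMB libraries did not. Auxin-treated cells without the degron were not analysed here, so an effect of auxin itself and one of TPR loss cannot be told apart. No library without LMB was analysed either, so an effect that needs LMB cannot be told apart from one that does not.

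The study describes its RNA-seq replicates as independent biological replicates. Libraries held 28261903 to 35992425 counts. Of 8 colorectal epithelial markers, 7 were above 1 CPM, against 0 of 4 fibroblast, 0 of 4 leukocyte and 1 of 3 endothelial markers. Auxin acts on the TPR protein, so TPR mRNA does not check the depletion; it ranged from 157 to 180 CPM without auxin and from 185 to 193 CPM with it. Libraries of the same replicate number deviated together, and results are therefore given both without and with the replicate number as a block. In bulk RNA, fewer cells and less RNA per cell cannot be told apart.

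Box C/D RNAs direct ribose methylation and box H/ACA RNAs direct pseudouridylation, in both cases by pairing with the target RNA, mostly ribosomal RNA in the nucleolus. A few, among them U3 (SNORD3), U8 (SNORD118), U14 (SNORD14) and U17 (SNORA73), are needed for cutting the ribosomal precursor. Cajal-body RNAs (SCARNA) guide the same modifications on spliceosomal RNAs. Most human members are trimmed from the introns of host genes, whereas U3, U8 and U13 are made from promoters of their own and carry a cap, and PHAX and CRM1 take part in the movement of U3 precursors inside the nucleus.

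The sequences of the members that the results turn on are shown 5′ to 3′, read from GRCh38. Capitals mark a box C motif (TGATGA) within the first 20 bases and a box D motif (CTGA) within the last 15, on the strand of the gene. The box C/D set holds the 4 loci that were lower with the replicate block, with SNORD88A and SNORD88B as close relatives of SNORD88C. SNORD3D lay at chr17:19112419-19112636 (minus strand), SNORD88C at chr19:50802328-50802418 (minus strand), SNORD88A at chr19:50799442-50799532 (minus strand), SNORD88B at chr19:50799032-50799122 (minus strand), SNORD95 at chr5:181243312-181243379 (minus strand) and SNORD23 at chr19:47755853-47755962 (plus strand).
SNORD3D: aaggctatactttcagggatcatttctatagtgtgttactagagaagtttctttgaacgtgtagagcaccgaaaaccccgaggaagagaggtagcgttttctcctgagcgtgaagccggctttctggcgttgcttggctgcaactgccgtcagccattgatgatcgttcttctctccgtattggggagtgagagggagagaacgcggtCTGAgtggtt
SNORD88C: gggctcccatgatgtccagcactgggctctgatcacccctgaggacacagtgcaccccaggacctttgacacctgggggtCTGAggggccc
SNORD88A: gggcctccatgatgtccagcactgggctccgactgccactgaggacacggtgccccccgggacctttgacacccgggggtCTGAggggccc
SNORD88B: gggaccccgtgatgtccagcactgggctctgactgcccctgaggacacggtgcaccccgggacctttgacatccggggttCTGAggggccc
SNORD95: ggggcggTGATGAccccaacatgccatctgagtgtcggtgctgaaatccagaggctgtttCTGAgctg
SNORD23: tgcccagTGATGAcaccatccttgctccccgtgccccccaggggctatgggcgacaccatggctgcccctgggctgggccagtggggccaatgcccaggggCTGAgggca

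The remaining set holds SNORA19, the member with the lowest fold change, SNORA73A, the SNORA gene with the highest count, and SCARNA13, the Cajal-body RNA with the highest density relative to its host. For the SNORA genes, capitals mark a box H motif (ANANNA) in the central part (of 3 equal parts) and an ACA within the last 15 bases. SCARNA13 was marked for the box C and box D letters only and held neither in its windows. Box H and ACA letters were not marked in it, so lower case there does not mean that they are absent. SNORA19 lay at chr10:119060011-119060138 (minus strand), SNORA73A at chr1:28507366-28507571 (plus strand) and SCARNA13 at chr14:95533355-95533629 (minus strand).
SNORA19: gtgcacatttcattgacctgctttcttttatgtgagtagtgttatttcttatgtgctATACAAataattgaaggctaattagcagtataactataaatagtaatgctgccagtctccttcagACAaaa
SNORA73A: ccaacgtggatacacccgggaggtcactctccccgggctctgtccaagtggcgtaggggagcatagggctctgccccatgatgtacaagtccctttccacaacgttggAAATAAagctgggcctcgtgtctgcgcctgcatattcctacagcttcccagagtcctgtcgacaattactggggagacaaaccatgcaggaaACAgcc
SCARNA13: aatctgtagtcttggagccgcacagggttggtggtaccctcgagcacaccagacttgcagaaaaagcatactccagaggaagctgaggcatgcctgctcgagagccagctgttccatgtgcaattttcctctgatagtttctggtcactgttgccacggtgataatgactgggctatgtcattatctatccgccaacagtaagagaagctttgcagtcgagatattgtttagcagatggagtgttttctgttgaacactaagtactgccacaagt

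Both box C/D motifs were found in their windows in 55 of 96 SNORD genes (57.3%), in 5 of 13 SCARNA genes (38.5%) and in 0 of 87 SNORA genes, and in 0 of the windows of the same length taken 500 bases upstream of the members. Both box H/ACA motifs were found in 76 of 87 SNORA genes (87.4%), 5 of 13 SCARNA genes (38.5%) and 2 of 96 SNORD genes (2.08%). In the upstream windows they were found in 10 of 87 for SNORA (11.5%), 0 of 13 for SCARNA and 5 of 96 for SNORD genes (5.21%). The match is of letters on the gene's strand only, and the exact box C letters are stricter than the range of known box C motifs.

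Levels spread widely within each class. SNORD genes ran from 0.894 to 3195 CPM with a median of 3.38 CPM, SNORA genes from 0.963 to 292 CPM with a median of 4.98 CPM, and SCARNA genes from 1.224 to 179.9 CPM with a median of 20.8 CPM. The median annotated lengths were 79, 134 and 270 bases. Under 10 CPM lay 73 SNORD, 62 SNORA and 4 SCARNA genes, so most members rested on few counts. The RNA was purified on silica columns, which bind short RNA poorly, and its part in these levels was not tested.

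As a class, the small RNAs took nearly the same share of each library with and without auxin. SNORD genes held 0.462% ± 0.0899 of all counts with LMB alone, against 0.450% ± 0.0933 after auxin (SD, n = 3). SNORA genes held 0.119% ± 0.0268 and 0.124% ± 0.0224, and SCARNA genes 0.0523% ± 0.00257 and 0.0507% ± 0.00428. Each difference between group means was smaller than the spread between replicates. By replicate pair, auxin libraries held the larger SNORA share in 3 of 3 cases, and the smaller SNORD and SCARNA shares in 2 of 3. U3 dominated the SNORD class, with SNORD3A alone at 60.7% to 76.0% of SNORD counts. Without the SNORD3 genes the SNORD share was 0.0852% ± 0.00290 in LMB and 0.0828% ± 0.00168 in LMB+auxin, lower in 3 of 3 pairs.

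**Figure D1:**
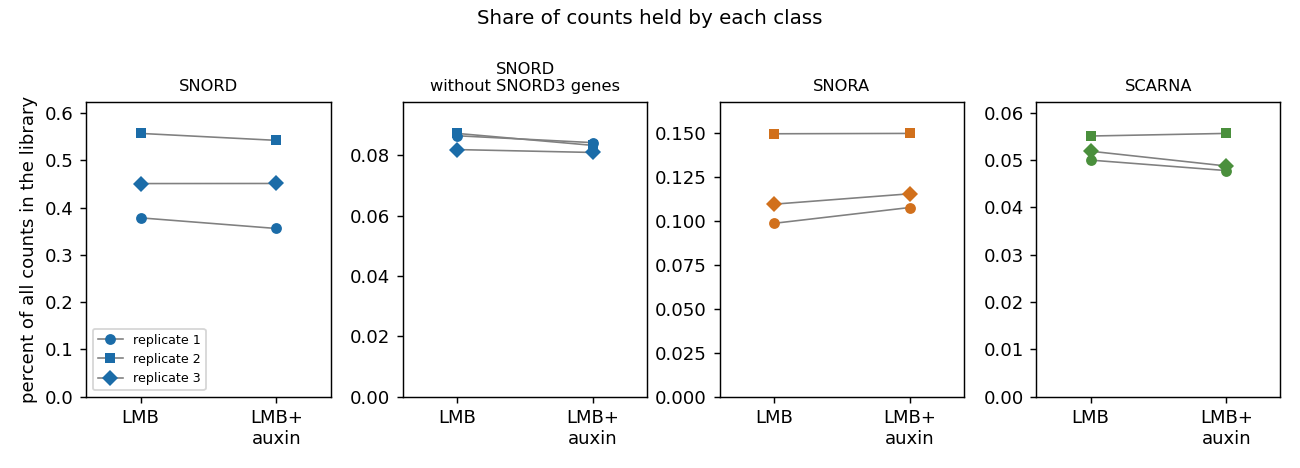
Percent of all counts in each library held by SNORD genes, SNORD genes without SNORD3, SNORA genes and SCARNA genes, in LMB and LMB+auxin, with the libraries of one replicate number joined. Replicate 2 stands highest for SNORD, SNORA and SCARNA genes in both groups, and the gaps between replicates exceed those between groups in the SNORD and SNORA panels.

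The median log2 fold change, LMB+auxin over LMB, was -0.07 over SNORD, 0.01 over SNORA and -0.00 over SCARNA genes, beside -0.00 over all 16974 tested genes. Fitted values were below 0 for 60 of 96 SNORD (62.5%), 38 of 87 SNORA (43.7%) and 7 of 13 SCARNA genes (53.8%), and for 50.7% of all tested genes. These are descriptions of the classes, with no test. The SNORD median was -0.05, -0.09 and -0.05 in replicate pairs 1, 2 and 3, and the SCARNA median was 0.11, 0.07 and -0.14.

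Member by member, a call required both a change of at least 1.3-fold and, in the quasi-likelihood test of edgeR, an adjusted p (Benjamini-Hochberg) under 0.05. Without the block 0 of 196 members were called by edgeR, limma-voom or DESeq2, where the edgeR background was 0.00589% of all tested genes. At an unadjusted p under 0.05 there were 7 members by edgeR and limma-voom and 6 by DESeq2, or 3.57% by edgeR against 4.37% of all tested genes. All 7 were lower, 6 SNORD genes and 1 SNORA gene, where 568 of the 741 tested genes at that threshold were lower. The SNORA gene was SNORA19, which passed the filter through the LMB libraries alone. The SNORD genes include both gene models of SNORD3D, which are the same locus.

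With the replicate number as a block, edgeR called 6 members, all lower in LMB+auxin: both gene models of SNORD3D, SNORD23, SNORD95, SNORD88C and SNORA19, which are 5 loci. By gene model, that was 3.06% of members, beside 0.884% of tested genes called lower. This percentage counts SNORD3D under both models and includes SNORA19, so it overstates the share of loci. Without SNORA19, which entered through the LMB group, 5 gene models at 4 loci remained, where all members lay at 191 loci. Where no filter on low counts was used with the block, SNORD3D, SNORD23, SNORD95 and SNORA19 were called and SNORD88C was not (adjusted p 0.0505 in edgeR), and SNORD62A, which had not passed the filter, was called lower. No member was called higher, beside 0.3%. By the adjusted p alone the same 6 were lower, beside 3.25% of tested genes, and SNORA73A was higher, beside 1.11%. At an unadjusted p under 0.05 there were 32 members (16.3%), 20 lower and 12 higher, below the 19.9% of all tested genes. Of the 16974 tested genes, 2001 were lower and 1375 higher at that threshold. The 20 include both SNORD3D models and SNORA19.

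**Figure D2:**
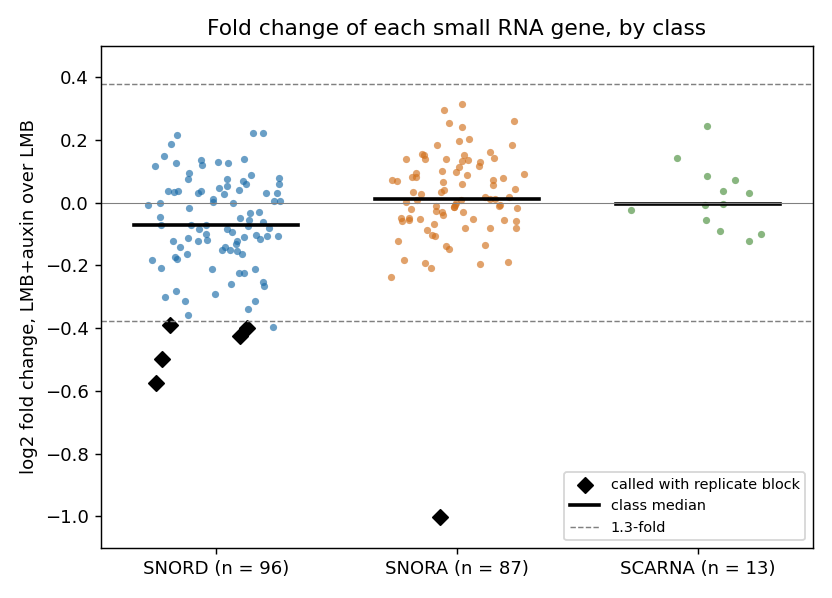
log2 fold change (LMB+auxin over LMB, fit without the block) of each of the 96 SNORD, 87 SNORA and 13 SCARNA genes, spread sideways for visibility, with class medians as bars and a 1.3-fold change as dashed lines. Black diamonds are the 6 genes called with the replicate block, all lower, with SNORA19 lowest at -1.001.

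The calls depended on the tool. DESeq2 with the block called 0 members, with 5 at an unadjusted p under 0.05, and limma-voom with the block called 6. In that DESeq2 fit SNORA19, SNORD88C, SNORD23 and SNORD95 received no adjusted p, so they could not be called. The SNORD3D models had adjusted p of 0.361 and 0.351 there. Leaving out both libraries of pair 1 left SNORD88C and SNORD95 called, and leaving out pair 3 left only the SNORD3D models. SNORA19 fell below the filter whenever a pair or an LMB library was left out, so it was not tested there. Without pair 2, SNORD23, SNORD95 and SNORD3D were called lower and SNORA79B higher.

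SNORA19, a box H/ACA RNA in an intron of EIF3A, met the filter in the 3 LMB libraries only, so a difference of this direction was built into its selection. It was at 1.87, 1.38 and 1.61 CPM in LMB and at 0.608, 0.927 and 0.882 CPM in LMB+auxin. The groups did not overlap, and it was lower in 3 of 3 pairs. These values rest on 54, 43 and 58 counts against 18, 27 and 28. The log2 fold change was -1.001 (SE 0.23), and the adjusted p in edgeR was 0.890 unblocked and 0.00115 blocked. With the block and no filter, which does not select by group, edgeR gave -0.998 with an adjusted p of 0.000732 over 39271 genes. DESeq2 with the block gave -1.004 with an unadjusted p of 0.0110 and no adjusted p. EIF3A, which codes for a subunit of a translation initiation factor, had a log2 fold change of 0.01. Counts per kilobase of SNORA19 were 0.119 times those of EIF3A.

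SNORD95, a box C/D RNA that overlaps an exon of RACK1, was at 3.95, 3.82 and 4.14 CPM in LMB and at 3.07, 2.92 and 2.46 CPM in LMB+auxin. The highest auxin value was below the lowest LMB value. The log2 fold change was -0.50 (SE 0.14), and the adjusted p in edgeR was 0.954 unblocked and 0.0125 blocked. RACK1, which codes for a protein of the small ribosomal subunit, had a log2 fold change of -0.03, and SNORD95 had 0.167 times its counts per kilobase.

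SNORD23, which overlaps an exon of NOP53, a ribosome biogenesis gene, was at 2.88, 2.12 and 2.503 CPM in LMB and at 1.28, 1.68 and 2.05 CPM in LMB+auxin. The groups were separated by a gap smaller than the spread within either. The log2 fold change was -0.57 (SE 0.21), and the adjusted p in edgeR was 0.954 unblocked and 0.0309 blocked. Counts per kilobase were 1.29 times those of NOP53, whose log2 fold change was -0.03. Without pair 1 the blocked log2 fold change was -0.31 (adjusted p 0.468 in edgeR).

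SNORD88C belongs to a box C/D group of 3 within C19orf48P. It was at 4.02, 4.26 and 4.39 CPM in LMB and at 3.41, 2.99 and 3.06 CPM in LMB+auxin. The groups did not overlap, with a log2 fold change of -0.43 (SE 0.13) and an adjusted p in edgeR of 0.954 unblocked and 0.0331 blocked. The host moved with it: C19orf48P had a log2 fold change of -0.24 and a blocked adjusted p of 0.000582 in edgeR, and SNORD88C had 1.01 times its counts per kilobase. SNORD88A and SNORD88B were 91.2% identical to each other and each 87.9% identical to SNORD88C over 91 bases. Their log2 fold changes were -0.28 and -0.10, and neither was called. How far SNORD88C counts are reads of the host was not tested.

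SNORD3D, a U3 copy was at 48.0, 54.2 and 49.3 CPM in LMB and at 28.3, 43.0 and 44.4 CPM in LMB+auxin. The groups did not overlap, and the first auxin library stood apart from the other two. The log2 fold change was -0.39 (SE 0.15), and the adjusted p in edgeR was 0.954 unblocked and 0.000512 blocked. Without pair 1 the blocked log2 fold change was -0.24, below the fold threshold (adjusted p 0.00162 in edgeR). The second SNORD3D model had nearly the same counts and is the same locus. Over 218 bases SNORD3D matched the other U3 genes at 98.2% to 99.1%, so reads can be split among the copies and its value is uncertain.

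**Figure D3:**
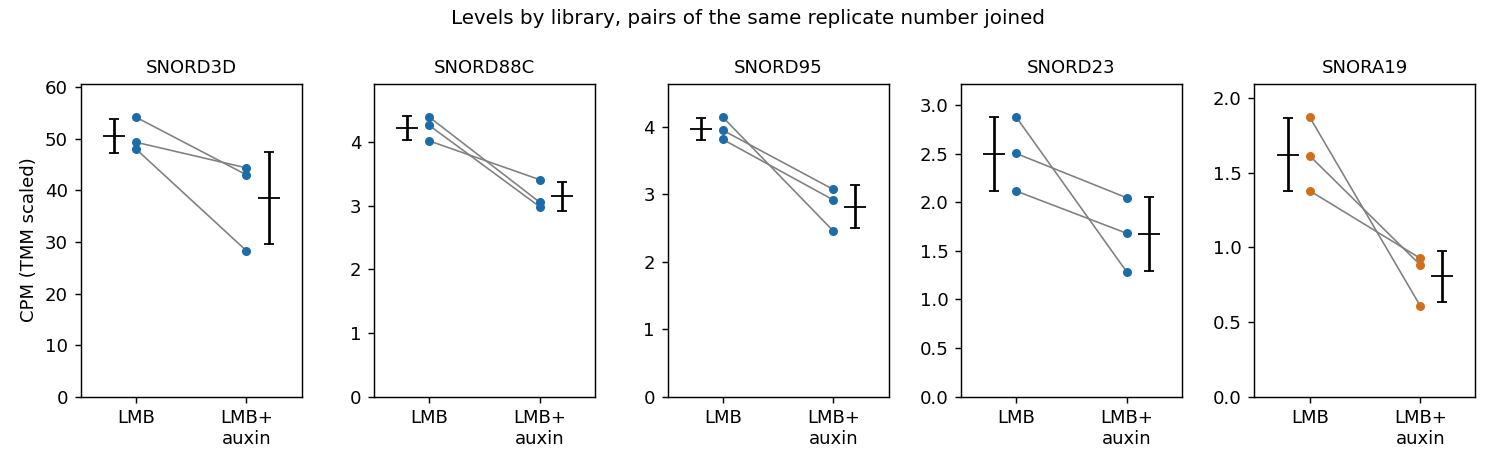
TMM-scaled CPM in each library of the 5 loci called lower with the replicate block, with libraries of one replicate number joined and the mean ± SD (n = 3) drawn beside each group. Every joined line falls, and in each panel the 3 LMB points lie above the 3 LMB+auxin points. The loci were drawn because of that call, so the falling lines restate the selection. SNORA19 also passed the filter through the LMB libraries alone.

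No other U3 gene was called. SNORD3A, the main U3 gene, was at 2251, 4212 and 3121 CPM in LMB and at 2203, 4249 and 3132 CPM in LMB+auxin. Each auxin library sat beside the LMB library of its own number, while the replicates of a group differed by more than the groups did. The log2 fold change was 0.00, with an SE of 0.28 unblocked and 0.04 blocked. SNORD3B-2 was at 308 ± 25.5 CPM without and 279 ± 44.7 CPM with auxin (SD, n = 3), SNORD3B-1 at 160 ± 6.07 and 149 ± 22.2 CPM, and their log2 fold changes were -0.14 and -0.10. Neither was called in either fit.

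Of the other capped or processing RNAs of the box C/D class, none was called in either fit. SNORD118 (U8) was at 118, 108 and 114 CPM in LMB and at 106, 106 and 112 CPM in LMB+auxin, and the groups overlapped. SNORD13 (U13), from its own promoter, was at 68.7 ± 6.30 and 63.3 ± 8.39 CPM (SD, n = 3). Both were lower in 3 of 3 pairs, with log2 fold changes of -0.07 and -0.12 and blocked adjusted p of 0.425 and 0.176 in edgeR. SNORD17, a long box C/D RNA in SNX5, was at 118 ± 28.7 and 124 ± 24.4 CPM.

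The U14 genes lie in RPS13 and HSPA8, and their log2 fold changes ran from -0.21 for SNORD14E to 0.08 for SNORD14D, with -0.07 for SNORD14B, -0.14 for SNORD14C and 0.04 for SNORD14A. Only SNORD14C had groups that did not overlap, at 2.88, 2.597 and 2.48 CPM against 2.46, 2.33 and 2.39 CPM. SNORD22 has a pair of gene models in SNHG1. The model with more counts was higher in 3 of 3 pairs, at 7.76, 7.66 and 7.73 CPM against 9.86, 8.24 and 8.94 CPM, and the other was at 3.66 ± 0.881 and 3.08 ± 0.917 CPM (SD, n = 3). Their blocked adjusted p was 0.157 and 0.257 in edgeR.

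Counting every member, 9 were lower in LMB+auxin with groups that did not overlap (4.59%), beside 6.63% of tested genes, and 2 were higher (1.02%), beside 4.9%. The lower set was SNORD3D under both models, which are the same locus, SNORD14C, SNORD23, SNORD88C, SNORD95, SNORD110, SNORA19 and SNORA44. SNORA19 passed the filter in the LMB libraries only, so its separation followed from the filter. The higher set was SNORD22 and SCARNA1. SNORD110, in NOP56, was at 2.67 to 2.98 CPM in LMB and at 1.92 to 2.42 CPM in LMB+auxin, with a blocked adjusted p of 0.122 in edgeR.

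The box H/ACA class was led by U17. SNORA73A was at 200, 387 and 244 CPM in LMB and at 242, 383 and 299 CPM in LMB+auxin, so the groups overlapped and the second library was highest in both. The blocked log2 fold change was 0.18 (SE 0.05), below the fold threshold, with an adjusted p in edgeR of 0.0112, against 0.966 unblocked. It was higher in 2 of 3 pairs, and the unblocked value turned to -0.04 when LMB replicate 1 or LMB+auxin replicate 2 was left out. SNORA73B was at 187 ± 59.0 and 197 ± 53.3 CPM (SD, n = 3), and both lie in SNHG3, whose log2 fold change was 0.10.

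SNORA63, which acts in ribosomal RNA processing and lies in EIF4A2, was at 94.1 ± 37.5 CPM without and 101 ± 37.1 CPM with auxin (SD, n = 3). SNORA48, in EIF4A1, was at 59.8 ± 19.4 and 60.01 ± 23.7 CPM, and SNORA24, in SNHG8, at 26.9 ± 0.629 and 26.6 ± 1.87 CPM. These differences were all smaller than the spread between replicates. SNORA12 was at 14.3 ± 1.32 and 16.3 ± 0.903 CPM, and SNORA38 at 1.78 ± 0.344 and 2.23 ± 0.699 CPM, and both were higher in 3 of 3 pairs with blocked adjusted p of 0.152 and 0.292 in edgeR.

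None of the 13 Cajal-body RNAs was called in either fit. SCARNA2 was at 192, 180 and 190 CPM in LMB and at 161, 186 and 170 CPM in LMB+auxin, with a log2 fold change of -0.12 (SE 0.07) and an adjusted p in edgeR of 0.954 unblocked and 0.116 blocked. SCARNA13, in SNHG10, was at 35.4, 32.7 and 35.6 CPM and at 42.4, 34.2 and 38.0 CPM, higher in 3 of 3 pairs, with an adjusted p of 0.165 with the block in edgeR. Both overlapped between groups. SCARNA10, SCARNA12 and SCARNA7 were at 83.5, 72.7 and 44.3 CPM on average in LMB and at 88.5, 67.8 and 43.7 CPM in LMB+auxin. SCARNA6 and SCARNA5, both in ATG16L1, were at 21.3 ± 6.01 and 20.5 ± 6.54 CPM in LMB and at 22.5 ± 5.77 and 21.1 ± 7.17 CPM in LMB+auxin (SD, n = 3).

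SCARNA17, SCARNA9 and SCARNA16 had log2 fold changes of -0.09, 0.03 and -0.01 with standard errors of 0.23, 0.20 and 0.17. SCARNA1, in PPP1R8, was the least abundant at 1.14, 1.25 and 0.974 CPM without and 1.35, 1.304 and 1.32 CPM with auxin. Its groups did not overlap, and its blocked adjusted p was 0.523 in edgeR.

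Over SNORA and SCARNA genes, replicates differed by more than the groups did. Over SNORA genes the median log2 ratio of replicate 2 to replicate 1 was 0.26 in LMB and 0.26 in LMB+auxin, and over SCARNA genes it was 0.46 and 0.42, whereas over SNORD genes it was -0.12 and -0.08. In both groups 20 SNORA genes were over 1.5 times higher in replicate 2 than in replicate 1, and 0 the other way. Among members under 100 bases, all SNORD genes, the median ratio was -0.16 in LMB and -0.20 in LMB+auxin. From 100 to 149 bases it was 0.20 and 0.25, from 150 to 249 bases 0.34 and 0.39, and from 250 bases 0.50 and 0.43. The part of RNA length in the replicate difference was not tested.

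**Figure D4:**
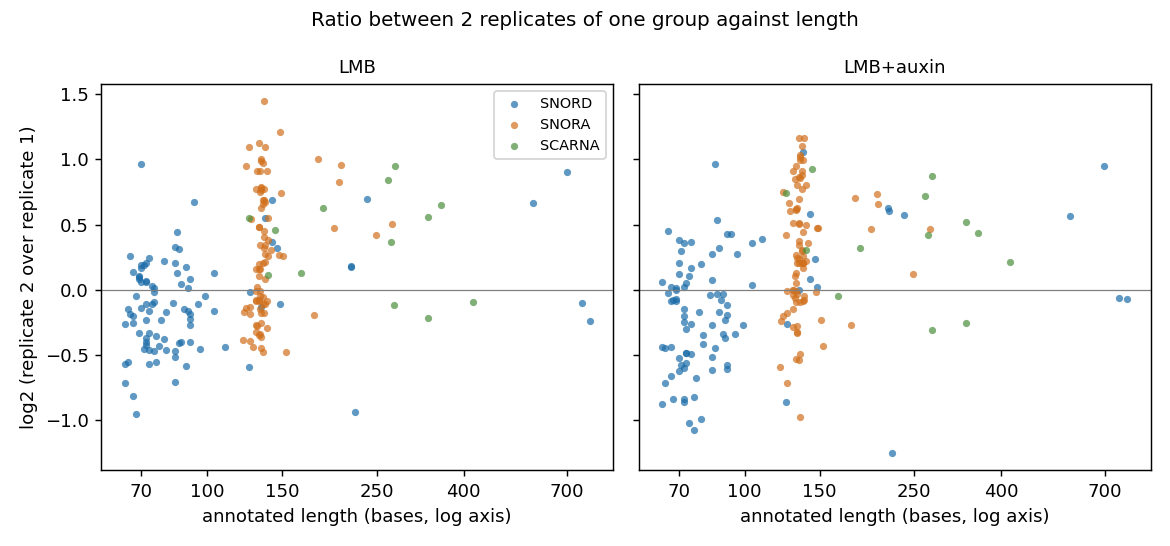
log2 ratio of replicate 2 to replicate 1 for each member against its annotated length in bases (log axis), in LMB and in LMB+auxin, with an offset of 0.01 CPM. Members under 100 bases centre below 0 and longer members above 0 in both groups, with medians of -0.16 and 0.50 in LMB for the shortest and the longest sets.

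Reads of overlapping genes were counted for some of these RNAs. SCARNA2 and the lncRNA model around it, ENSG00000270066, had nearly the same level in each library. The paired models at SNORD3D, SNORD38B, SNORA16A, SNORA17B and SNORA50A held nearly equal counts, so at these loci a read was entered for each gene it overlapped. SCARNA13 did not follow this: all 275 bases lay in an exon of SNHG10, yet it averaged 36.4 CPM where SNHG10 averaged 14.5 CPM. Overlaps were taken from GENCODE 44, whereas the reads were counted on Ensembl release 87. An exon of another gene overlapped 69 SNORD, 53 SNORA and 7 SCARNA genes, another 21, 33 and 6 lay in introns, and 6, 1 and 0 lay outside other genes. The median log2 fold change was -0.08 for SNORD genes with an exonic overlap and 0.03 for those in introns, and -0.01 and 0.09 for SNORA genes. All 5 SNORD gene models called with the block overlapped an exon.

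Counts per kilobase reached those of the host in 32 of 90 SNORD, 38 of 86 SNORA and 12 of 13 SCARNA genes with a host, and the median ratios were 0.534, 0.712 and 6.69. For the 107 members below their host, how many of the counts are host reads was not tested, and counts per kilobase of host exons are not those of the introns in which many members lie. Among these members, SNORA23 was at 8.35 and 16.7 CPM in LMB replicates 1 and 2, where its host IPO7 was at 747 and 646 CPM. In the same libraries SNORA7A, also below its host, was at 11.5 and 13.8 CPM, where its host RPL32 was at 645 and 732 CPM. Each is a single example, named after its values were seen. SNORD genes at or above the host density had a median log2 fold change of -0.03, and those below it -0.08. Across 189 members in 107 hosts, the log2 fold changes of member and host had a Pearson r of 0.347 and a Spearman rho of 0.335, where both came from the same libraries and may share reads. Member and host had the same sign in 100 of 189. The hosts had a median log2 fold change of 0.04.

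**Figure D5:**
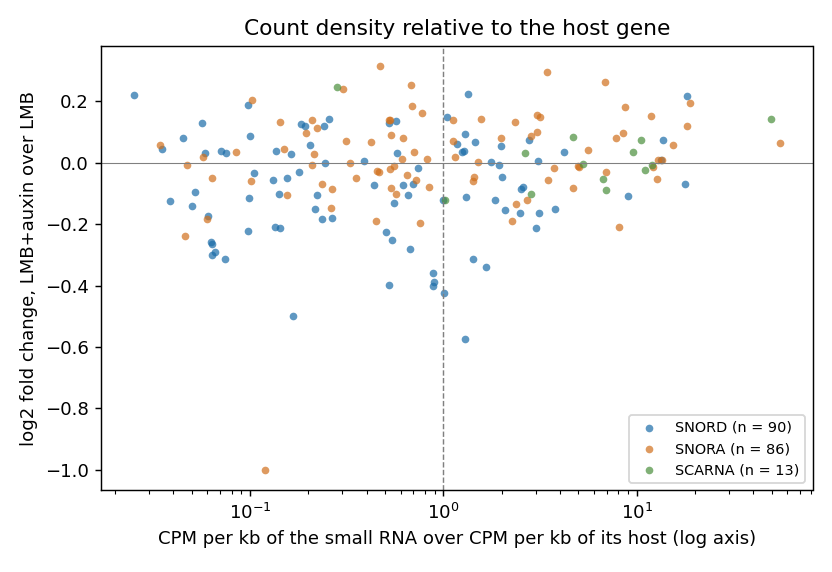
log2 fold change of each member (LMB+auxin over LMB) against the ratio of its counts per kilobase to those of its host gene (log axis), for 90 SNORD, 86 SNORA and 13 SCARNA genes. Members to the left of the dashed line, 107 in all, have fewer counts per kilobase than the host.

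Fitted fold changes varied among members of one host, where the median SE over all members was 0.18 in the fit without the block. The 8 in TAF1D ran from -0.12 to 0.15 and the 7 in SNHG1, which count SNORD22 under both models, from -0.36 to 0.22 on the log2 scale. Whether members of one host differ was not tested.

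The proteins that build and use these RNAs showed no called change. Of 41 genes for core, assembly, cap, Cajal-body and trimming factors, 0 were called in either fit. Without the block 0 had an unadjusted p under 0.05, and with it 10 had, 8 higher and 2 lower (24.4%, beside the 19.9% of all tested genes). Of the 16974 tested genes, 1375 were higher and 2001 lower at that threshold with the block. Their median log2 fold change was 0.03. FBL, the methyltransferase of box C/D particles, was at 107, 157 and 122 CPM in LMB and at 100, 165 and 120 CPM in LMB+auxin. DKC1, the pseudouridine synthase of box H/ACA particles, was at 223, 209 and 234 CPM and at 233, 223 and 244 CPM.

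The lowest unadjusted p without the block fell to ZCCHC7, a cofactor of the nuclear exosome, RPAP3, an assembly factor, and COIL, the scaffold of Cajal bodies. Their log2 fold changes were 0.18, 0.14 and -0.14, with blocked adjusted p of 0.119, 0.112 and 0.180 in edgeR. ZCCHC7 was at 23.9, 24.2 and 23.2 CPM in LMB and at 30.5, 24.3 and 25.8 CPM in LMB+auxin. Its groups did not overlap, but only by 24.24 against 24.3 CPM in replicate 2. Of the 41 genes, 3 were higher with groups that did not overlap (7.32%), beside 4.9% of tested genes. In the other direction there were 0, beside 6.63%. PHAX, which carries capped precursors, was at 89.6, 81.5 and 89.0 CPM and at 96.7, 78.3 and 90.9 CPM.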

How the data were processed

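Per the labels and the study's methods, the authors aligned paired reads to GRCh38 with STAR (2.6.1c in the submitters' processing notes) and counted them per gene of Ensembl release 87 with featureCounts (1.5.2), and the deposited values are raw counts. The strand, overlap and multi-mapping settings of the counting are not given in the sources used here. Symbols, positions and hosts came from GENCODE 44, a later release, which matched 56948 of 58051 identifiers (98.1%). The host was the gene with the most counts containing the member on its strand.

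Genes with CPM above 1 in at least 3 libraries were tested with edgeR 4.0.16 in R 4.3.3 (TMM, estimateDisp, robust glmQLFit, glmQLFTest), with group as the only term, and called at an adjusted p under 0.05 and a fold of 1.3. Standard errors are the fold change over the square root of F. Library sizes were summed over the tested genes. Sums over all genes were tried after the data were seen, in the course of comparing gene counts with an earlier analysis of these data, and gave the same 741 genes at an unadjusted p under 0.05. The scripts were tested on simulated data. DESeq2 1.42.0 and limma 3.58.1 were alternatives.

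Same-numbered libraries deviated together (r = 0.531, 0.691 and 0.273 over 16974 genes, against -0.573 to 0.146 for different numbers), so the numbers were taken to pair the samples. These are deviations from group means, which cancel out within a group, so part of this contrast is built in. The pairing was judged on the same data that were then tested with it. The biological coefficient of variation was 0.0989 without and 0.0406 with the block.

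Genes were named by level (5 highest per class), unadjusted p (3 lowest per class), any call, textbook role, or closeness to the filter, and other genes of 5 or fewer in a count were named after their values were seen. The members and lists were chosen with earlier results of these data known. One host gene's result is not reported here.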

Additional observations from a re-analysis of the deposited data

How the results depend on the processing

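Most members lay under 10 CPM, which limits what could be detected. The number of genes called was 1 and became 0 under library size alone or a CPM minimum of 5, 39 with no filter, 11 by DESeq2, and 0 to 5 with a library left out. The replicate block gave 201, and with it 31 by DESeq2, 185 by limma-voom, 254 under library size alone, 202 with totals over all genes, 211 with no filter and 133, 158 and 134 without pairs 1, 2 and 3. Members called went from 0 to 2 with no filter (both SNORD3D models) and to 6 with the replicate block, under limma-voom, library size alone, totals over all genes and no filter too, and to 2, 5 and 2 without pairs 1, 2 and 3. No setting called a protein of the list. With a library left out, the class medians ran from -0.11 to -0.032 (SNORD), -0.055 to 0.091 (SNORA) and -0.14 to 0.12 (SCARNA); without exonic overlaps SNORD gave -0.030 and SNORA 0.080, and SNORA gave 0.041 with the block and without pair 3. Of 39 named members 20 never changed sign. The others did so with a library left out, over ranges of -0.064 to 0.25 (SCARNA10), -0.22 to 0.046 (SCARNA12), -0.12 to 0.042 (SCARNA7), -0.14 to 0.29 (SCARNA6), -0.28 to 0.29 (SCARNA5), -0.41 to 0.086 (SCARNA17), -0.17 to 0.18 (SCARNA9), -0.17 to 0.12 (SCARNA16), -0.036 to 0.48 (SNORA73A), -0.16 to 0.37 (SNORA73B), -0.24 to 0.46 (SNORA63), -0.37 to 0.26 (SNORA48), -0.065 to 0.041 (SNORA24), -0.26 to 0.26 (SNORD3A), -0.077 to 0.28 (SNORD17), -0.18 to 0.0085 (SNORD14B), -0.081 to 0.19 (SNORD14A), -0.056 to 0.24 (SNORD14D) and -0.063 to 0.31 (SNORD38A). Near 0, SCARNA16 was 0.0058 by limma-voom and 0.00061 by DESeq2, SNORA48 was -0.011 under library size alone, -0.0044 above 5 CPM, -0.017 by limma-voom and -0.012 with the block, and SNORD3A was -0.014, -0.0079, -0.0043 and -0.0044 in the same order. The cause of these changes was not tested.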

Other observations

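Of the 551 genes with a SNORD, SNORA or SCARNA symbol, 355 stayed below the filter and 190 of them had 0 counts in all 6 libraries. The large tandem families of imprinted loci, known mainly from brain, had few or no counts. Their copies are near-identical repeats and the multi-mapping setting of the counting is not known, so discarded reads and absent RNA cannot be told apart. Of 50 SNORD115 genes, 49 were at 0 in every library and the highest count was 1. Of 33 SNORD116 genes, 31 were at 0, with a highest count of 3. All 9 SNORD113 genes and 29 of 30 SNORD114 genes were at 0.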
